A study of Mus musculus with 42 samples.

Results

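Cytochrome P450 enzymes of the liver were followed at the transcript level through 6 comparisons of mouse liver RNA sequencing. Every gene whose symbol began with Cyp and a digit was taken from the WT obese and WT lean table. The Cyp2b genes, Cyp51 and the bile acid genes Cyp7a1, Cyp7b1, Cyp8b1 and Cyp27a1 were left out, which gave 72 of the 15136 genes listed there. The family includes its abundant hepatocyte markers Cyp2e1, Cyp1a2, Cyp3a11 and Cyp4a14, and each of these 4 was detected in all 42 livers.

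All 42 animals were male, with 7 mice in each of 6 groups and 1 library per mouse. Wild type (WT) littermates and mice lacking ChemR23 (the receptor for resolvin E1, encoded by Cmklr1 and deleted by CRISPR/Cas9 on the C57BL/6J background; KO) were given a control diet with 10% of its energy as fat (lean) or a high fat diet with 60% (obese) from 6 weeks of age for 15 weeks. WT lean, KO lean, WT obese and KO obese mice received vehicle (ethanol in saline buffer). WT obese+RvE1 and KO obese+RvE1 mice received 300 ng of the lipid mediator resolvin E1 by intraperitoneal injection on 4 consecutive days, and all livers were taken from fasting mice on day 5. The knockout was not restricted to a cell type of the liver. The libraries held between 15992525 and 43841120 reads on listed genes. Cmklr1 itself was counted at 9.72 to 22.6 in KO lean livers against 40.8 to 114 in WT lean livers, with no overlap. Since whole liver was sequenced, a lower level of a hepatocyte transcript could not be told apart from fewer hepatocytes.

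P450 enzymes are haem proteins that insert a single oxygen atom of molecular oxygen into a lipophilic substrate, with electrons passed on from NADPH by the reductase Por. Families Cyp1 to Cyp3 mostly oxidise drugs and other foreign compounds, Cyp4 enzymes hydroxylate fatty acids at the end of the chain, and the higher numbered families handle steroids, retinoids and vitamin D. Many are induced by their own substrates through the receptors Ahr, Nr1i3 (CAR), Nr1i2 (PXR) and Ppara, which is why the family is read as a record of what the liver is exposed to. In rodents several are also sex-biased under growth hormone control, and many are concentrated around the central vein.

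The genes called under the diet lay largely in clusters of closely similar genes, and promoter sequences are shown for some genes of these clusters. Of the Cyp4a genes only Cyp4a32 is shown, which was not called in WT. Cyp4a10, Cyp4a12a, Cyp4a12b, Cyp4a14 and Cyp4a31 had no promoter entry that could be shown. RefSeq promoter sequences of the GRCm38.p6 build (the build also named mm10) matched 52 of the 72 genes by symbol. The 250 bases before the annotated start are given 5′ to 3′ for Cyp2a4 (chr7:26306942-26307191, + strand), Cyp2a5 (chr7:26835089-26835338, + strand), Cyp2a22 (chr7:26939387-26939636, - strand), Cyp2c37 (chr19:39992174-39992423, + strand), Cyp2c50 (chr19:40089429-40089678, + strand) and Cyp4a32 (chr4:115600688-115600937, + strand). Capitals mark 2 motifs, each searched on both strands. TATAAA is a core promoter box that places the transcription start in some genes. In Cyp4a32 the capitals mark its reverse complement TTTATA, 113 bases before the start. The other, CAAAGTC, is part of a site type known for the hepatocyte factor HNF4A.
Cyp2a4: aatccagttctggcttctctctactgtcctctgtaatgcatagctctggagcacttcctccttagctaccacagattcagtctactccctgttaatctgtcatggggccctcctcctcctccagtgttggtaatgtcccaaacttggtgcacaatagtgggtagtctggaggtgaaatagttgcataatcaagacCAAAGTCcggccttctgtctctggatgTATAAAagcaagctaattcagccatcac
Cyp2a5: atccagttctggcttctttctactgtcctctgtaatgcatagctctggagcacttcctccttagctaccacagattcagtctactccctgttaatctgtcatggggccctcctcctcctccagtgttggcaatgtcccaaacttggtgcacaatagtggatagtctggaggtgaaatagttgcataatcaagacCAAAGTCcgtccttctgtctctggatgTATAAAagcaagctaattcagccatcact
Cyp2a22: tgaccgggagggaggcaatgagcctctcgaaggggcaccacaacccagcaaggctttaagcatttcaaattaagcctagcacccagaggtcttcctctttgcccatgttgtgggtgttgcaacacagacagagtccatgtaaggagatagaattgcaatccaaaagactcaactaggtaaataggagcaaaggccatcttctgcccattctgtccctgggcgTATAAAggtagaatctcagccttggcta
Cyp2c37: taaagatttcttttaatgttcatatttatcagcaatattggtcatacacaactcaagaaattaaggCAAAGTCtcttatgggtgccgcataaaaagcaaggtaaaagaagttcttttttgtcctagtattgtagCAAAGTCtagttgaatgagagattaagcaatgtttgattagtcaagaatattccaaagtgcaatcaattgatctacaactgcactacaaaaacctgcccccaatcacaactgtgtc
Cyp2c50: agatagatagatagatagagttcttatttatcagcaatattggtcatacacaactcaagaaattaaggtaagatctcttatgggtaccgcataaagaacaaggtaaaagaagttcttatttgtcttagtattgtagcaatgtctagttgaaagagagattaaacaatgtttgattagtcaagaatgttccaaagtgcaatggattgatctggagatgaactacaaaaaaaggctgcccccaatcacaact
Cyp4a32: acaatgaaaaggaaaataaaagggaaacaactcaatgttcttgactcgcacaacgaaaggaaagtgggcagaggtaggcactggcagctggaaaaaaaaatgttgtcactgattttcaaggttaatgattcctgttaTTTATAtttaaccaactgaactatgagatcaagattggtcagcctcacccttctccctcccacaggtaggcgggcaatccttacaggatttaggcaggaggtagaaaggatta

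The Cyp2a4 and Cyp2a5 windows were identical at 97.6% of aligned positions, and both held CAAAGTC followed by TATAAA just before the start. The Cyp2c37 and Cyp2c50 windows were 84.3% identical, yet CAAAGTC occurred at 2 places in Cyp2c37 and at none in Cyp2c50. Cyp2a22 shared only 51.5% with Cyp2a4, close to the 46.9% it shared with Cyp2c37 of another cluster, although it kept a TATAAA at 28 bases before the start. TATAAA was present in the windows of 23 of the 52 genes, against 12.4% of all 32851 promoter windows of that length. CAAAGTC was present in 14 of the 52, against 3.84% of all windows. AGGTCA, the core letters bound by many nuclear receptors, was present in 10 of the 52, against 14.0% of all windows, and in none of the 6 windows shown. These matches describe letters only.

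The likeness extended to the coding sequences, and it limits how far single genes can be separated. In GENCODE M21 the coding sequences of Cyp2a4 and Cyp2a5 differed at 23 of their 1482 positions, with an identical stretch of 216 bases, and Cyp4a12a and Cyp4a12b differed at 23 of 1524 with an identical stretch of 342 bases. Cyp2c37 and Cyp2c50 were 96.1% identical, Cyp4a10 and Cyp4a32 97.2%, Cyp4a31 and Cyp4a10 96.6%, and Cyp2a22 and Cyp2a12 97.0%. How reads that fit several copies were counted is not given in the sources used here, so the division of reads within these pairs is uncertain. Cyp4a14 stood further apart, with 75.9% identity to its nearest relative among the 72.

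Per kilobase of exon, a single enzyme led the family in the lean WT liver. Cyp2e1, which oxidises ethanol and acetone, reached 2398 ± 429.8 RPKM (reads per kilobase of exon, scaled to the reads on listed genes of the library; mean ± SD, n = 7). Cyp4a14 at 470.5 ± 325 and Cyp4a10 at 402 ± 131, both fatty acid hydroxylases, came next. Their ranges over mice overlapped with each other and with the genes that followed, and only Cyp2e1 stood clear of the rest. Cyp2d26, Cyp2d10 and Cyp2d9 of the drug-oxidising Cyp2d cluster lay at 347 ± 31.6, 325 ± 36.7 and 282 ± 29.6 on the same scale. The arachidonic acid epoxygenase Cyp2j5 was at 268 ± 32.4 and Cyp2f2, typical of periportal hepatocytes, at 247 ± 64.1. Cyp3a25, Cyp2c70, Cyp3a11 and Cyp2c67 completed the 12 most abundant, with means between 136 and 174. The order depends on the annotated exon length, which was 5093 bases for Cyp3a11 against 2083 for Cyp3a25. Before division by length, normalized counts in WT lean livers were 7148 to 26919 for Cyp3a11 and 5598 to 12642 for Cyp3a25.

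**Figure D1:**
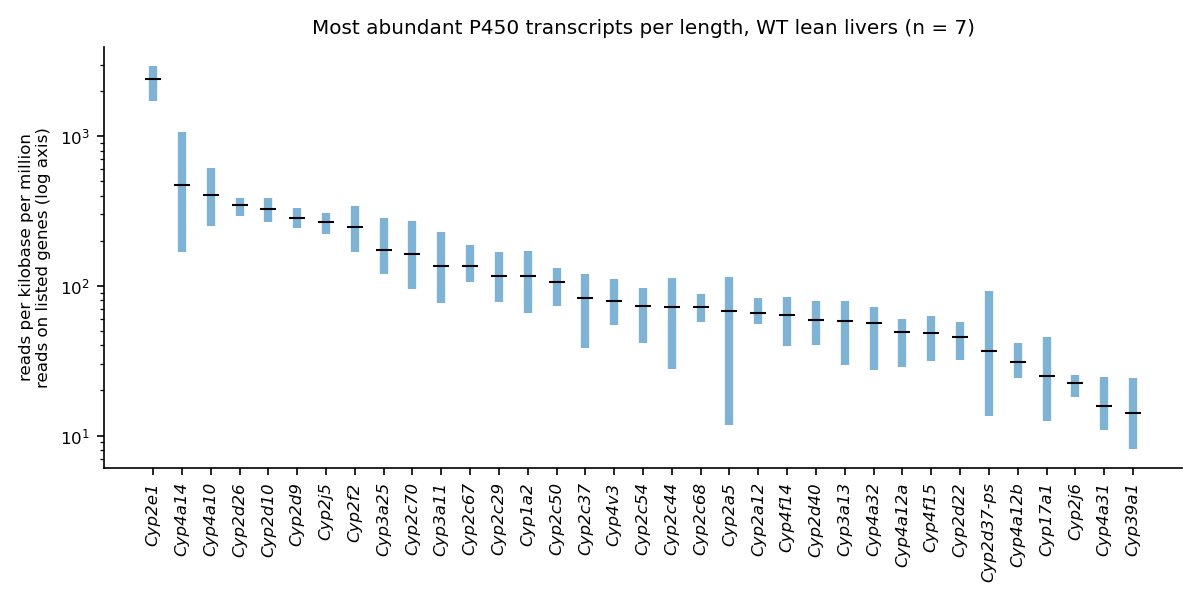
RPKM, the reads per kilobase of exon scaled to library depth (log axis), for the 35 most abundant P450 genes in 7 WT lean livers. Blue bars span the lowest to the highest mouse and black ticks mark the mean; Cyp2e1 stands alone at the top with a mean of 2398, while the bars of neighbouring genes overlap.

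The family ran over a wide range of levels. With exon lengths for 71 of the 72 genes, 15 were above 100 on this scale, 20 between 10 and 100, 15 between 1 and 10 and 21 below 1. Together the genes took 1.42% to 1.76% of all listed reads in WT lean livers, with a median of 1.59%. The corresponding medians were 1.90% for WT obese mice, 1.49% for KO lean mice and 1.68% for KO obese mice, and the ranges of these groups overlapped.

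Obese livers had lower counts of Cyp4a fatty acid hydroxylases than lean livers, with 4 of the 6 genes called in WT and 6 of 6 in KO. A set of Cyp2a and Cyp2c genes was called higher in both genotypes. A normalized count is the number of reads on a gene divided by a factor for the size of its library. A gene was counted as called when limma, fitted to log2(normalized count + 1) over the whole table, gave a Benjamini-Hochberg adjusted p below 0.1 together with a fold change above 1.5. In WT obese against WT lean livers, 67 of the 72 genes reached the minimum mean of 5 normalized counts and were tested. Of these, 5 were called higher, where 2.26% of all 14012 genes tested were, and 4 were called lower, where 1.53% of all genes were. In KO obese against KO lean livers, 70 genes were tested, of which 10 were called higher (4.97% of all 14213 genes) and 9 lower (5.42% of all genes). All 9 genes called in WT were also called in KO in the same direction, and they made up 47.4% of the 19 called in KO. The WT and KO contrasts share no mouse. How many of all genes called in WT were also called in KO was not computed, and calls over all genes were more frequent in KO. Near-identical pairs among the 9, such as Cyp2a4 and Cyp2a5, may share reads and do not count as separate observations. The median log2 fold change over the family was 0.07 in WT and 0.06 in KO, against 0.0030 and -0.0021 over all genes tested. Scaling to equal library totals moved the median of all genes by 0.14 in the KO contrast and turned the KO split from 10 higher and 9 lower into 14 higher and 8 lower.

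**Figure D2:**
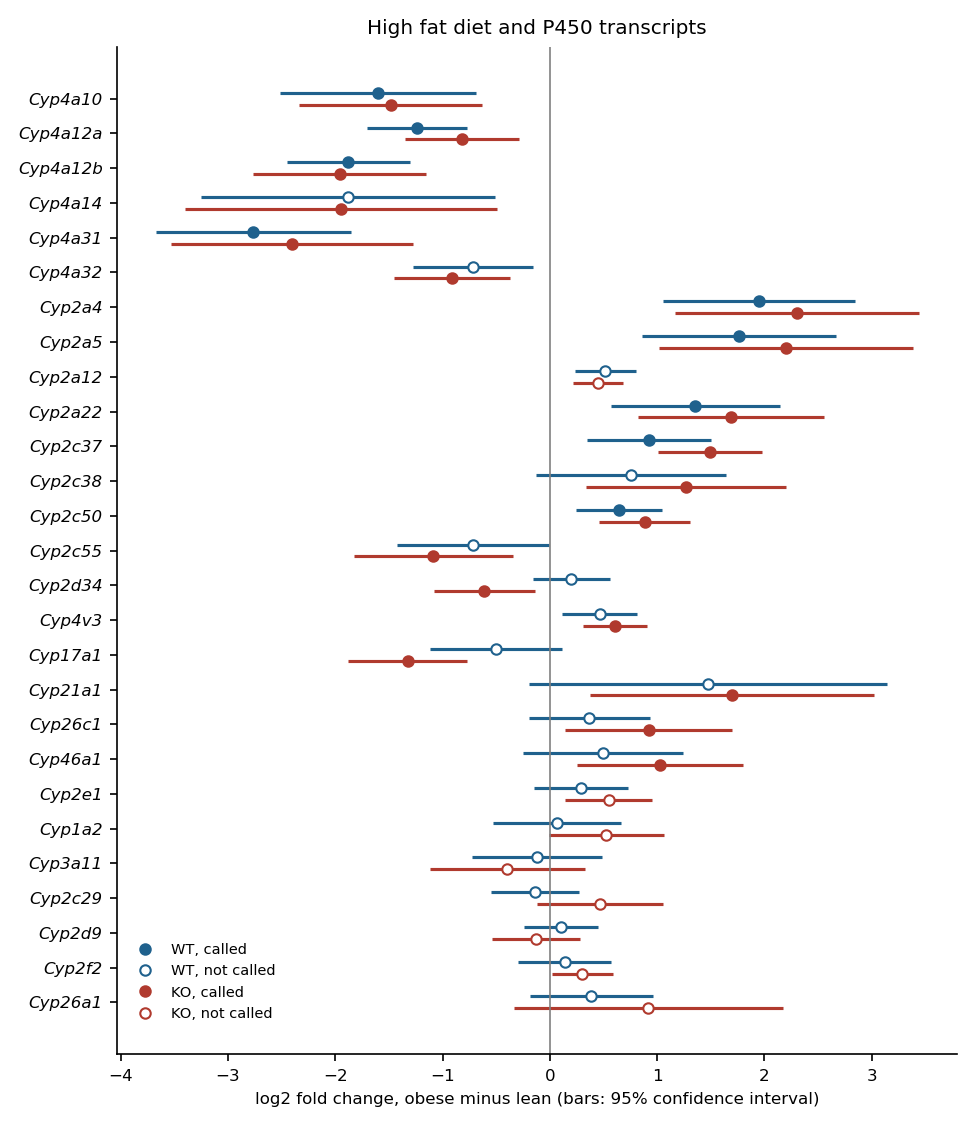
Log2 fold change of obese over lean livers (x axis) with 95% confidence intervals for 27 P450 genes in WT (blue) and KO (red) mice, 7 against 7 each. Filled points were called; the 6 Cyp4a genes lie left of 0 and the 4 Cyp2a genes right of 0 in both genotypes.

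The 6 Cyp4a genes, which hydroxylate fatty acids and include textbook targets of Ppara, lie in a single cluster on chromosome 4. In GRCm38 the cluster runs from Cyp4a12a (chr4:115299046-115332815, + strand) through Cyp4a14 (chr4:115486200-115496142, - strand) and Cyp4a10 (chr4:115518264-115533649, + strand) to Cyp4a32 (chr4:115600969-115621602, + strand). All 6 had a negative fold change in both genotypes. In WT mice 4 of the 6 were called lower, and the median over the 6 was -1.74 on the log2 scale. In KO mice all 6 were called lower, with a median of -1.71.  None of the Cyp4f genes was called in either contrast (6 tested in WT and 7 in KO), and Cyp4v3, an omega-hydroxylase of the same family, was called higher in KO.

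Cyp4a31 had the most negative fold change. In WT lean livers the lowest, median and highest normalized counts of Cyp4a31 were 633, 693 and 1537, and in WT obese livers they were 37.4, 156 and 420.2. The 2 groups did not overlap, and the difference was large (log2 fold change -2.76, SE 0.43, adjusted p = 0.0025). Normalized counts of Cyp4a31 were 212, 1241 and 3553 (lowest, median, highest) for the KO lean mice and 129.9, 162 and 372 for the KO obese mice. Here 6 of the 7 obese mice lay below every lean mouse, and the seventh, at 372, lay inside the lean range (log2 fold change -2.40, SE 0.53, adjusted p = 0.0109).

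Cyp4a10 was among the most abundant transcripts of the cluster. Across WT lean mice Cyp4a10 had a lowest, median and highest normalized count of 11971, 18026 and 31833, against 1547, 5765 and 19284 across WT obese mice. Of the 7 WT obese mice, 6 were below every lean mouse and 1 lay inside the lean range (log2 fold change -1.60, SE 0.43, adjusted p = 0.0528). The call was lost without WT obese replicate 3 (adjusted p = 0.11) under edgeR (adjusted p = 0.114) and with equal library totals (adjusted p = 0.105). Cyp4a10 ran at 7849.8, 24126 and 53212 normalized counts (lowest, median and highest mouse) in KO lean livers and at 4715, 7948 and 12342 in KO obese livers. Only 2 of the 7 KO obese mice fell below all lean mice, and the lean group was widely spread (log2 fold change -1.48, SE 0.40, adjusted p = 0.0251).

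Cyp4a14 followed Cyp4a10 but with a still wider spread. In WT lean livers the lowest, median and highest normalized counts of Cyp4a14 were 10125, 23073 and 68949, and in WT obese livers they were 1085, 3991 and 30015. With 4 of 7 obese mice below the lean range and 3 inside it, the WT contrast missed the threshold (log2 fold change -1.88, SE 0.65, adjusted p = 0.128), and it passed without WT obese replicate 5 (adjusted p = 0.0596) or without WT obese replicate 7. Normalized counts of Cyp4a14 were 5859, 46441 and 119594 (lowest, median, highest) for the KO lean mice and 2125, 11658 and 18921 for the KO obese mice. It was called in KO (log2 fold change -1.95, SE 0.69, adjusted p = 0.065), and the call was lost on leaving out any of 5 mice (KO lean replicates 2, 6 and 7, KO obese replicates 6 and 7; adjusted p up to 0.136).

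Cyp4a12a and Cyp4a12b, which are male-biased arachidonic acid hydroxylases, were called lower in both genotypes. Across WT lean mice Cyp4a12b had a lowest, median and highest normalized count of 1272, 1492 and 2299, against 168, 543 and 687 across WT obese mice. The groups did not overlap (log2 fold change -1.88, SE 0.27, adjusted p = 0.00166). They did not overlap in KO mice either, with 1015, 1507 and 2204 in lean and 105, 503 and 862 in obese livers (log2 fold change -1.96, SE 0.38, adjusted p = 0.00601). For Cyp4a12a the WT difference was -1.24 (95% CI -1.71 to -0.77, adjusted p = 0.00545) on the log2 scale, with 6 of 7 obese mice below all lean mice. In KO it was -0.82 (95% CI -1.35 to -0.29, adjusted p = 0.0381). Cyp4a32 had the smallest shift of the cluster in WT, -0.72 (95% CI -1.27 to -0.16, adjusted p = 0.152), which was not called, and it was called in KO at -0.91 (95% CI -1.45 to -0.37, adjusted p = 0.0283). In WT it was called by DESeq2 (log2 fold change -0.66, adjusted p = 0.093) and by limma without WT lean replicate 1 or WT obese replicate 1. Cyp4a12b overlaps a processed pseudogene on the opposite strand, and whether counting used strand is not given in the sources used here.

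**Figure D3:**
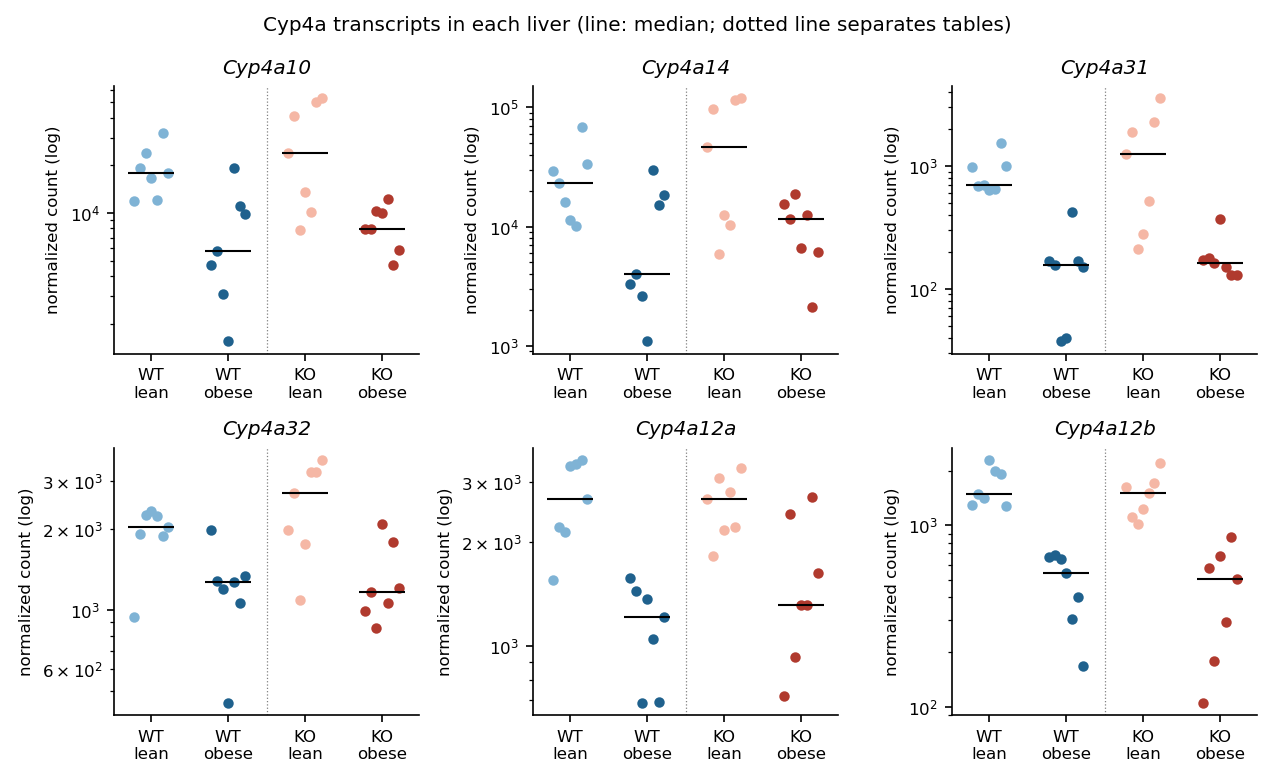
Normalized counts (log axis) of the 6 Cyp4a genes in each of 28 livers, 7 per group, with lines at the group medians; the dotted line separates the WT and KO tables, which were normalized apart. The obese medians lie below the lean medians in all 6 panels, and the KO lean mice spread widely for Cyp4a10, Cyp4a14 and Cyp4a31.

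Known Ppara targets outside the P450 family are given beside the Cyp4a genes, from a list chosen with earlier results of these data known. Of 30 listed, 29 were tested. In WT, 7 were called lower (1.53% of all genes were) and none higher, and the median log2 difference was -0.25. In KO, 12 were called lower (5.42% of all genes were) and none higher, with a median of -0.41. The peroxisomal beta-oxidation enzyme Ehhadh differed by -1.48 (95% CI -1.99 to -0.98, adjusted p = 0.00295) in WT and -1.81 (95% CI -2.61 to -1.01, adjusted p = 0.0084) in KO. The acyl-CoA thioesterase Acot1 differed by -1.39 (95% CI -1.94 to -0.84, adjusted p = 0.00717) and -1.53 (95% CI -2.10 to -0.96, adjusted p = 0.0042). Ppara itself was not called in WT, -0.18 (95% CI -0.58 to 0.23, adjusted p = 0.683), nor in KO, 0.08 (95% CI -0.22 to 0.37, adjusted p = 0.745). Whether Ppara had a part in the Cyp4a differences was not tested.

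The Cyp2a genes lie in a cluster on chromosome 7, with Cyp2a4 at chr7:26307169-26315088, + strand, Cyp2a5 at chr7:26835305-26843548, + strand, Cyp2a22 at chr7:26931631-26939384, - strand and Cyp2a12 at chr7:27029081-27037375, + strand. All 4 had positive fold changes in both genotypes and 3 were called in each, with median log2 fold changes over the 4 of 1.56 in WT and 1.95 in KO. Cyp2a5 hydroxylates coumarin and nicotine, and its near copy Cyp2a4 hydroxylates testosterone and is female-biased.

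Cyp2a5 ran at 599, 3802 and 5459 normalized counts (lowest, median and highest mouse) in WT lean livers and at 6313, 7507 and 12652 in WT obese livers. Every WT obese mouse was above every lean mouse (log2 fold change 1.77, SE 0.43, adjusted p = 0.0319). In KO lean livers the lowest, median and highest normalized counts of Cyp2a5 were 581, 1609.6 and 9113, and in KO obese livers they were 8281, 9838 and 17583. In KO, 5 of 7 obese mice were above all lean mice, and the remaining 2 lay below the highest lean mouse (log2 fold change 2.20, SE 0.56, adjusted p = 0.0188). Cyp2a4 was far less abundant but separated completely in both genotypes. It ran at 9.58, 55.0 and 83.3 in WT lean and 107, 136 and 195 in WT obese livers (log2 fold change 1.95, SE 0.42, adjusted p = 0.0177). In KO livers it ran at 8.97, 28.6 and 108 when lean and 119.8, 139 and 267 when obese (log2 fold change 2.30, SE 0.54, adjusted p = 0.014).

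Cyp2a22 was called higher in WT, 1.36 (95% CI 0.57 to 2.14, adjusted p = 0.056), and in KO, 1.69 (95% CI 0.82 to 2.56, adjusted p = 0.0165). In WT, 6 of 7 obese mice exceeded all lean mice, and the call was lost without WT lean replicate 1, WT lean replicate 3 or WT obese replicate 6 (adjusted p up to 0.118). Cyp2a12, a testosterone hydroxylase, had a small difference with little spread. It was 0.52 (95% CI 0.23 to 0.81, adjusted p = 0.0469) in WT and 0.45 (95% CI 0.21 to 0.68, adjusted p = 0.0176) in KO, below the fold threshold in both, and in KO all 7 obese mice exceeded all 7 lean mice. With equal library totals it was called in KO (log2 fold change 0.59, adjusted p = 0.00573). Groups that did not overlap were found for 2 genes above and 2 below in WT (0.799% and 0.564% of all genes) and for 3 above and 1 below in KO (0.985% and 1.11% of all genes).

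**Figure D4:**
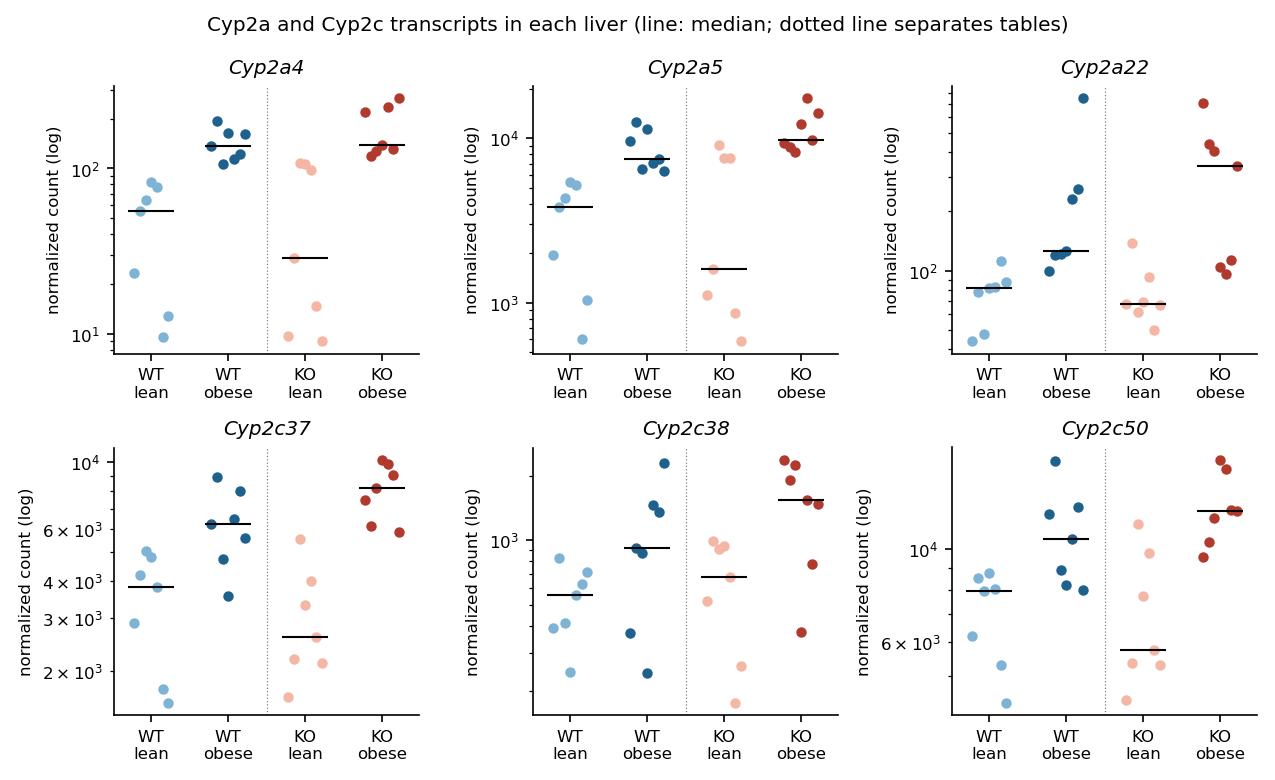
Normalized counts (log axis) of 3 Cyp2a and 3 Cyp2c genes in each of 28 livers, 7 per group, with lines at the group medians; the dotted line separates the WT and KO tables. The obese medians lie above the lean medians in all 6 panels, and Cyp2a4 separates lean from obese mice completely in both tables.

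The Cyp2c genes on chromosome 19 differed among themselves. The 14 genes include the pseudogene Cyp2c53-ps and Cyp2c44 (chr19:44005022-44029208, - strand), which lies apart from the rest. In WT 13 were tested, with 2 called higher (2.26% of all genes). In KO 14 were tested, with 3 higher (4.97% of all genes) and 1 lower (5.42% of all genes). Cyp2c37 (chr19:39992424-40012243, + strand) and Cyp2c50 (chr19:40089688-40113950, + strand), which metabolise arachidonic acid, were called in both genotypes. Normalized counts of Cyp2c37 were 1564, 3819.6 and 5029.8 (lowest, median, highest) for the WT lean mice and 3570.5, 6236 and 8914 for the WT obese mice. There 5 of 7 obese mice exceeded all lean mice (log2 fold change 0.93, SE 0.27, adjusted p = 0.0769). Across KO lean mice Cyp2c37 had a lowest, median and highest normalized count of 1630.0, 2599 and 5541, against 5853, 8187 and 10211 across KO obese mice. The KO groups did not overlap (log2 fold change 1.49, SE 0.23, adjusted p = 0.00255).

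For Cyp2c50 the WT difference was 0.64 (95% CI 0.24 to 1.04, adjusted p = 0.079) and the KO difference 0.88 (95% CI 0.46 to 1.31, adjusted p = 0.013). The WT calls of Cyp2c37 and Cyp2c50 were lost on leaving out any of 7 and any of 6 mice, with adjusted p up to 0.157 and 0.156 without WT obese replicate 6. Cyp2c38 was called in KO, 1.27 (95% CI 0.34 to 2.20, adjusted p = 0.062). In WT it was at 0.76 (95% CI -0.13 to 1.65, adjusted p = 0.357), and there DESeq2 called it (log2 fold change 0.99, adjusted p = 0.0985). Its KO call was lost without any of 6 mice (adjusted p up to 0.129 without KO lean replicate 6). Cyp2c55, the gene called lower, was scarce, with 23.7, 28.4 and 75.5 in KO lean and 5.16, 18.7 and 26.7 in KO obese livers (log2 fold change -1.08, SE 0.35, adjusted p = 0.0476). The abundant Cyp2c29 was not called, at -0.14 (95% CI -0.55 to 0.27, adjusted p = 0.76) in WT and 0.47 (95% CI -0.12 to 1.05, adjusted p = 0.264) in KO, but equal library totals called it higher in KO (log2 fold change 0.61, adjusted p = 0.0764).

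Among the steroid, retinoid and sterol enzymes, 8 genes of families 11 and above were tested in each contrast. Cyp17a1, the steroid 17-hydroxylase and lyase, was called lower in KO. Cyp17a1 ran at 1010.0, 2213 and 3811 normalized counts (lowest, median and highest mouse) in KO lean livers and at 601, 804 and 1237 in KO obese livers. Of the 7 obese mice, 4 were below the whole lean range (log2 fold change -1.32, SE 0.26, adjusted p = 0.00645). In WT the estimate was -0.50 (95% CI -1.12 to 0.11, adjusted p = 0.382) and not called. Cyp46a1, which hydroxylates cholesterol, was called higher in KO at 1.03 (95% CI 0.25 to 1.80, adjusted p = 0.0681) and was 0.50 (95% CI -0.25 to 1.24, adjusted p = 0.487) in WT, where it was called without WT obese replicate 4. Its KO call was lost without any of 7 mice (adjusted p up to 0.141 without KO lean replicate 6).

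Cyp21a1, the steroid 21-hydroxylase of the adrenal cortex (chr17:34801348-34804561, - strand), had the widest range inside a group among members with a mean of at least 50 normalized counts. In WT lean livers the lowest, median and highest normalized counts of Cyp21a1 were 5.32, 19.1 and 47.6, and in WT obese livers they were 4.42, 64.7 and 549.9. A single group thus spanned a 124-fold range, and the WT contrast was not called (log2 fold change 1.48, SE 0.79, adjusted p = 0.339). It was called by edgeR (adjusted p = 0.0968) and by DESeq2 (adjusted p = 0.0392). Normalized counts of Cyp21a1 were 6.28, 16.6 and 83.8 (lowest, median, highest) for the KO lean mice and 21.9, 56.7 and 374 for the KO obese mice. The KO call (log2 fold change 1.70, SE 0.63, adjusted p = 0.0755) was lost without any of 8 mice (adjusted p up to 0.138 without KO lean replicate 2). The gene overlaps the pseudogene Tnxa on the other strand. The adrenal transcript Star ran from 69.9 to 105 in KO obese livers and from 62.8 to 94.9 in KO lean livers. Of 6 adrenal genes listed only 2 were tested, and whether adrenal tissue had a part in the Cyp21a1 values was not tested.

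The retinoic acid hydroxylases differed from one another. Cyp26a1 was not called, at 0.39 (95% CI -0.18 to 0.96, adjusted p = 0.477) in WT and 0.92 (95% CI -0.34 to 2.17, adjusted p = 0.307) in KO, where the KO lean mice alone ran from 5.87 to 119. Cyp26c1 was called higher in KO at 0.92 (95% CI 0.14 to 1.70, adjusted p = 0.0979), with counts of 1.96 to 15.5 in lean and 5.29 to 12.9 in obese livers. The highest mouse of the table was a lean one, and the call was lost with edgeR, with DESeq2, with a pseudocount of 4 and without any of 10 mice. Cyp26b1 was not called in either contrast.

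The most abundant drug-oxidising members were not called by the diet. Across WT lean mice Cyp2e1 had a lowest, median and highest normalized count of 91837, 106574 and 145447, against 84814, 136943 and 190598 across WT obese mice. The groups overlapped (log2 fold change 0.29, SE 0.21, adjusted p = 0.484). In KO the difference of Cyp2e1 was 0.55 (95% CI 0.14 to 0.95, adjusted p = 0.0635), under the 1.5-fold threshold, and it was called when library totals were made equal (adjusted p = 0.0123). Cyp1a2, the caffeine oxidase induced through Ahr, was at 0.07 (95% CI -0.53 to 0.66, adjusted p = 0.934) in WT and 0.53 (95% CI -0.01 to 1.06, adjusted p = 0.165) in KO, and equal library totals called it in KO as well (adjusted p = 0.0411). Both were also called in KO without KO lean replicate 5, Cyp2e1 without KO obese replicate 6 and Cyp1a2 without KO obese replicate 1 (adjusted p as low as 0.0146 for Cyp2e1 and 0.0323 for Cyp1a2). Cyp3a11, the main Nr1i2-induced drug oxidase, was at -0.12 (95% CI -0.72 to 0.49, adjusted p = 0.87) and -0.40 (95% CI -1.12 to 0.32, adjusted p = 0.455). The Cyp2d cluster on chromosome 15 had 1 call in 10 genes tested in KO, the scarce Cyp2d34, -0.61 (95% CI -1.08 to -0.14, adjusted p = 0.0729), lost without any of 9 mice, and none in WT. Cyp2d9 was at 0.10 (95% CI -0.24 to 0.45, adjusted p = 0.789) in WT and -0.13 (95% CI -0.53 to 0.28, adjusted p = 0.691) in KO, and Cyp2f2 at 0.14 (95% CI -0.30 to 0.57, adjusted p = 0.778) and 0.30 (95% CI 0.02 to 0.59, adjusted p = 0.132).

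Of the other most abundant members, Cyp2j5, Cyp2d10, Cyp2d26, Cyp3a25, Cyp2c67 and Cyp2c70 were uncalled in both contrasts. In WT their log2 fold changes were 0.26, 0.04, 0.26, 0.16, -0.15 and -0.06 in that order. In KO they were 0.18, -0.30, 0.22, -0.21, -0.11 and 0.04. Cyp4v3, the fatty acid hydroxylase of the eye and liver, was called higher in KO, 0.61 (95% CI 0.31 to 0.91, adjusted p = 0.0138), with 6 of 7 obese mice above all lean mice. It was 0.47 (95% CI 0.12 to 0.81, adjusted p = 0.139) in WT. The KO call was lost without KO lean replicate 1, KO lean replicate 2 or KO obese replicate 4, when its fold change fell below 1.5. Among the 67 genes tested in WT, 58 were not called, 32 of them with a positive fold change, and their log2 values ran from -1.88 to 1.48. Among the 70 tested in KO, 51 were not called, 31 of them with a positive fold change, and their log2 values ran from -0.70 to 0.92. The 5 genes not tested in WT for low counts were Cyp2c53-ps, Cyp2j8, Cyp3a41a, Cyp4f39 and Cyp4f41-ps, and the 2 in KO were Cyp2j8 and Cyp4f41-ps. Of the P450 genes known as male-biased, the same 2 of 5 tested were called lower in each genotype, the near-identical Cyp4a12a and Cyp4a12b. Of all genes, 1.53% were called lower in WT and 5.42% in KO. Of the female-biased genes, 6 were tested in WT and 7 in KO. Cyp2a4 was called higher in each (2.26% and 4.97% of all genes were), and Cyp17a1 lower in KO. Fold changes of the female-biased genes were positive for 2 of 6 in WT (median -0.32) and 4 of 7 in KO (median 0.02).

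Mouse identifiers in the labels start with a number of unexplained meaning, and counts inside a group often went with it. In all, 3 mice of WT obese carry the number 6, 3 carry 27 and 1 carries 22. Cyp4a14 was 15293 to 30015 in the mice numbered 6, against 1085 to 3991 in those numbered 27 and 3266 in the mouse numbered 22. Cyp2a22 was 232 to 750.4 against 120.4 to 126 in those numbered 27, and Cyp21a1 was 4.42 to 30.3 against 64.7 to 549.9 and 156. In WT lean livers Cyp2a5 was 599 to 1031 in the mice numbered 8 and 5231 to 5459 in those numbered 26.

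KO lean mice also divided by number. Cyp4a14 was 5859 to 12432 in the mice numbered 20, 46441 to 97620.2 in those numbered 14 and 114443 to 119594 in those numbered 9. Cyp2a5 ran the other way, at 7569 to 9113 in mice numbered 20, 1113 to 1609.6 in 14 and 581 to 862 in 9, and Cyp3a11 was 28019 to 69173, 14437 to 33227 and 16631 to 20469.6. The 3 KO lean mice numbered 20 thus had Cyp4a14 counts within the KO obese range. In KO obese livers Cyp3a11 was 30359 to 34042 in the mice numbered 10 and 14369.8 to 20106 in those numbered 31.

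Over the WT diet table, 91.4% of the within-group variation of Cyp2a5 on the log2 scale lay between numbers, and 87.4% of that of Cyp4a14. In the KO diet table the shares were 96.0% and 82.6%. The median gene of the family had 60.7% in WT and 60.0% in KO, where the median over all genes tested was 55.2% and 46.2% and the numbers took 41.7% and 33.3% of the degrees of freedom. No number occurs in both a lean and an obese group, so number and diet cannot be told apart within a number, and mice of 1 number may not be independent. With the number as a random block, limma called 5 genes in WT (Cyp2a4 and Cyp2a5 higher; Cyp4a12a, Cyp4a12b and Cyp4a31 lower) and 10 in KO (Cyp2a4, Cyp2a5, Cyp2a22, Cyp2c37, Cyp2c50 and Cyp4v3 higher; Cyp4a10, Cyp4a12b, Cyp4a31 and Cyp17a1 lower). Under that block the adjusted p of Cyp4a10 in WT was 0.123 and that of Cyp4a14 in KO was 0.11. The block applied a single correlation to all genes, 0.26 in WT and 0.24 in KO. It may therefore correct too little for genes that vary mostly between numbers, such as Cyp2a5.

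Whether the diet difference itself depended on ChemR23 was tested as KO difference minus WT difference. None of 67 genes passed limma at an adjusted p below 0.1, where 0.00717% of all 13945 genes did, and 1 had an unadjusted p below 0.05 (Cyp2d34, -0.81 (95% CI -1.38 to -0.24, adjusted p = 0.147)). edgeR and DESeq2 also gave 0. The interval of Cyp4a14 was -0.07 (95% CI -2.15 to 2.01, adjusted p = 0.981), that of Cyp4a10 0.12 (95% CI -1.18 to 1.41, adjusted p = 0.947) and that of Cyp2a5 0.44 (95% CI -1.11 to 1.99, adjusted p = 0.807). Cyp17a1, called lower in KO and not in WT, gave -0.82 (95% CI -1.68 to 0.04, adjusted p = 0.293). The intervals of Cyp4a14, Cyp4a10 and Cyp2a5 were wide and take in differences in either direction.

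Loss of ChemR23 was compared with WT in lean and in obese livers. In KO lean against WT lean, none of 64 genes was called higher (3.94% of all 13031 genes were) and none lower (2.7% of all genes were); 11 had an unadjusted p below 0.05. The smallest p belonged to Cyp2c68, -0.43 (95% CI -0.71 to -0.15, adjusted p = 0.0576), under the fold threshold. Cyp2d34, the gene called lower by the diet in KO, was at 0.55 (95% CI 0.15 to 0.95, adjusted p = 0.0797), also under the fold threshold. Of its 7 KO lean mice, 5 lay above all WT lean mice. Cyp3a11 ran at 7386, 16257 and 28057 in WT lean and 13121, 25526 and 62817 in KO lean livers, with 3 KO mice above all WT mice (log2 fold change 0.81, SE 0.36, adjusted p = 0.155). Cyp1a2 was at -0.64 (95% CI -1.17 to -0.11, adjusted p = 0.115). edgeR called 0 and DESeq2 called 2, Cyp3a11 higher and Cyp39a1 lower. With equal library totals, which moved the median of all genes by -0.12, Cyp1a2, Cyp2c29, Cyp39a1 and Cyp4f14 were called lower. Without KO lean replicate 5 the count rose from 0 to 6. Cyp1a2 was also called without WT lean replicate 6 or 7, and Cyp3a11 without KO lean replicate 1 (adjusted p = 0.0851). Cyp4a14 and Cyp4a10 were at 0.38 and 0.12, with KO lean mice both above and below the whole WT lean range. Cyp4a12a, Cyp2a5, Cyp2c29, Cyp2d9, Cyp2e1, Cyp2f2 and Cyp17a1 were uncalled, at -0.22, -0.23, -0.56, 0.15, -0.21, -0.04 and 0.35 on the log2 scale. Cyp26a1 was uncalled too, with an interval of -2.25 to 0.26.

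In KO obese against WT obese livers none of 69 genes was called by limma, where 0.0141% of all 14162 genes were, 2 had an unadjusted p below 0.05, and edgeR and DESeq2 gave 0. Those 2 were Cyp3a41a, 1.26 (95% CI 0.19 to 2.33, adjusted p = 1), which was near the lower limit of counting, and the retinoic acid hydroxylase Cyp26b1, 1.01 (95% CI 0.11 to 1.91, adjusted p = 1). Cyp4a14 differed by 0.31 (95% CI -1.11 to 1.73, adjusted p = 1) and Cyp2a5 by 0.21 (95% CI -0.21 to 0.62, adjusted p = 1). Cyp3a11, Cyp4a10, Cyp4a12a, Cyp2c29, Cyp2d9, Cyp2e1, Cyp2f2, Cyp1a2, Cyp17a1 and Cyp26a1 had log2 fold changes of 0.54, 0.24, 0.20, 0.05, -0.08, 0.05, 0.13, -0.18, -0.47 and -0.47.

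RvE1 was compared with vehicle in obese mice of each genotype. None of 65 genes was called in WT and none of 70 in KO, where 0.0% of all genes were called in each; 7 genes had an unadjusted p below 0.05 in each. edgeR called 0 in both, and DESeq2 called 0 in WT and 2 in KO. The following values are therefore below the threshold under limma. Cyp4a14 ran at 1274, 4682 and 35426 normalized counts (lowest, median and highest mouse) in WT obese livers and at 13592, 24392 and 35483 in WT obese+RvE1 livers. All but 1 of the RvE1 mice lay inside the vehicle range (log2 fold change 1.67, SE 0.60, adjusted p = 0.772). The 3 vehicle mice numbered 6 were at 17942, 21716 and 35426, and the other 4 ran from 1274 to 4682, below every RvE1 mouse. In KO obese livers the lowest, median and highest normalized counts of Cyp4a14 were 2145, 11785 and 19105, and in KO obese+RvE1 livers they were 5655, 27952 and 85683. Here 6 of 7 RvE1 mice were above all vehicle mice (log2 fold change 1.69, SE 0.53, adjusted p = 0.557), and DESeq2 called the gene (adjusted p = 0.0924).

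Cyp4a10 gave 1.02 (95% CI 0.11 to 1.93, adjusted p = 0.785) in WT and 0.99 (95% CI 0.30 to 1.68, adjusted p = 0.557) in KO. Cyp3a11 gave 0.79 (95% CI 0.26 to 1.33, adjusted p = 0.772) in WT and 0.09 (95% CI -0.43 to 0.61, adjusted p = 0.935) in KO, and Cyp2a5 gave 0.00 (95% CI -0.74 to 0.75, adjusted p = 0.999) and -0.52 (95% CI -1.04 to 0.00, adjusted p = 0.596). Cyp21a1 ran at 22.3, 57.2 and 377 in KO obese and 2.93, 10.1 and 26.3 in KO obese+RvE1 livers, with 6 RvE1 mice below all vehicle mice (log2 fold change -2.33, SE 0.58, adjusted p = 0.557; DESeq2 adjusted p = 0.0545). Cyp17a1 gave 0.54 (95% CI 0.12 to 0.95, adjusted p = 0.557) in KO and 0.24 (95% CI -0.36 to 0.85, adjusted p = 0.969) in WT. Of the abundant members, Cyp2e1 gave 0.25 (95% CI -0.17 to 0.67, adjusted p = 0.943) in WT and 0.02 (95% CI -0.33 to 0.38, adjusted p = 0.98) in KO, and Cyp1a2 gave -0.27 (95% CI -0.87 to 0.32, adjusted p = 0.967) and -0.43 (95% CI -0.88 to 0.02, adjusted p = 0.604). Cyp4a12a, Cyp2c29, Cyp2d9, Cyp2f2 and Cyp26a1 were at -0.21, 0.39, -0.01, -0.01 and -0.00 in WT and at -0.54, 0.00, -0.18, -0.20 and 0.11 in KO.

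**Figure D5:**
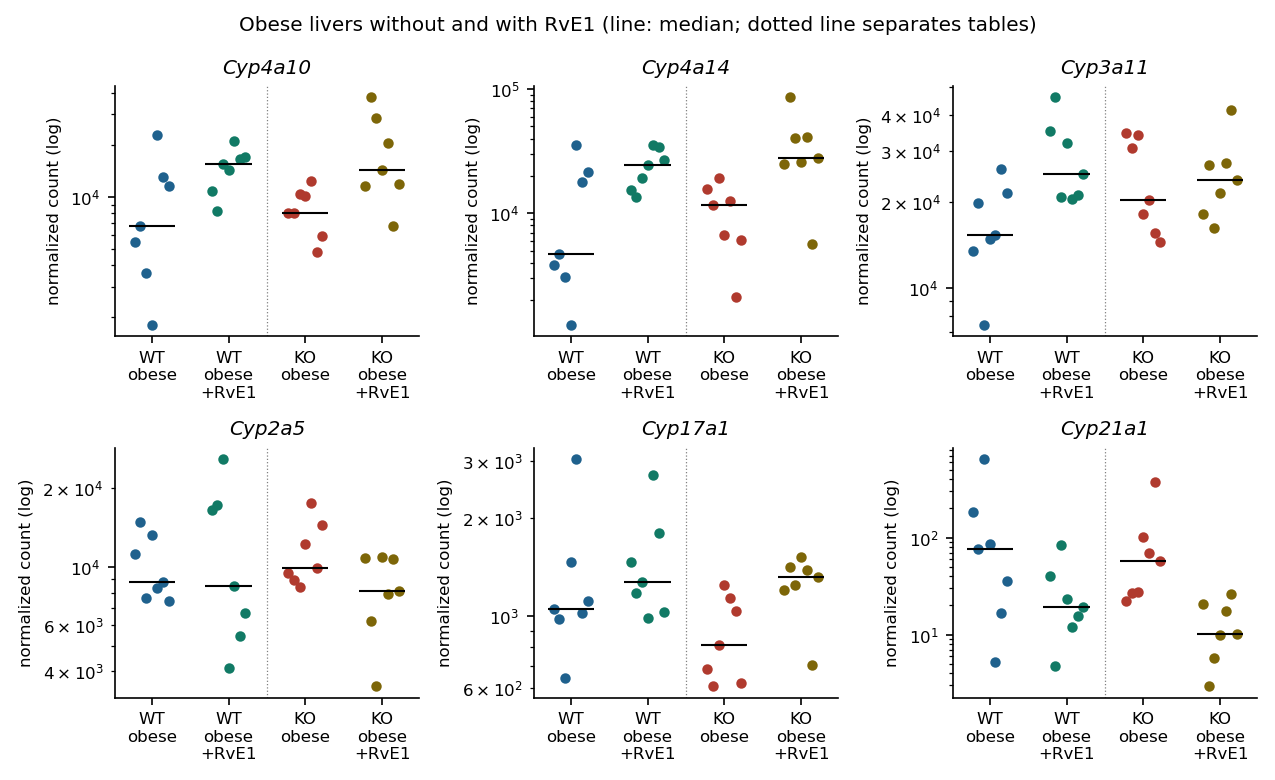
Normalized counts (log axis) of 6 P450 genes in 28 obese livers given vehicle or RvE1, 7 per group, with lines at the group medians; the dotted line separates the WT and KO tables. The RvE1 medians of Cyp4a10 and Cyp4a14 lie above the vehicle medians in both genotypes, with overlapping points, and none of the 6 genes was called by limma.

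The RvE1 difference did not pass the test of a difference between genotypes for any of 65 genes (0.0% of all 13079 genes; 0 of the 65 at an unadjusted p below 0.05; edgeR 0, DESeq2 0). For Cyp4a14 it was 0.02 (95% CI -1.73 to 1.77, adjusted p = 1), for Cyp3a11 -0.71 (95% CI -1.46 to 0.05, adjusted p = 1) and for Cyp2a5 -0.52 (95% CI -1.45 to 0.41, adjusted p = 1). The listed Ppara targets outside the family had no calls under RvE1 in either genotype. Their fold changes were positive for 29 of 29 in WT (median 0.24) and 21 of 29 in KO (median 0.10). Over all genes tested the median was 0.0047 in WT and -0.0082 in KO, and the share of positive fold changes was not computed. For the difference between genotypes 1 of the 29 was positive (median -0.17), and none was called. The diet and RvE1 contrasts of a genotype share their obese vehicle mice, and their values are given side by side only. WT obese and WT obese+RvE1 mice share no identifier number, so number and RvE1 cannot be told apart in WT. KO obese and KO obese+RvE1 mice share the number 23 alone, for which Cyp4a14 was at 6689 normalized counts in the 1 vehicle mouse and at 5655 and 27952 in the 2 RvE1 mice.

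The partners that P450 enzymes need were mostly uncalled. Of 18 genes for electron transfer and haem synthesis, 17 were tested, with 1 called lower in WT (the cytochrome b5 reductase Cyb5r3, -0.59 (95% CI -0.97 to -0.22, adjusted p = 0.0792)) and 0 called in KO. The reductase Por was at 0.29 (95% CI -0.32 to 0.89, adjusted p = 0.649) in WT and -0.05 (95% CI -0.59 to 0.50, adjusted p = 0.923) in KO. Among 25 receptors and factors known to control P450 genes, 24 were tested. In WT 3 were called higher and 0 lower (2.26% and 1.53% of all genes were), and in KO 5 higher and 1 lower (4.97% and 5.42%). Nr1i3, the constitutive androstane receptor, was called higher in both, at 0.94 (95% CI 0.32 to 1.55, adjusted p = 0.0912) and 0.60 (95% CI 0.38 to 0.82, adjusted p = 0.00388), and so was Ahr, at 0.62 (95% CI 0.21 to 1.03, adjusted p = 0.0957) and 0.69 (95% CI 0.19 to 1.18, adjusted p = 0.0578). Nr1i2 was at 0.03 (95% CI -0.34 to 0.40, adjusted p = 0.955) and 0.00 (95% CI -0.46 to 0.47, adjusted p = 0.994). The factor called lower in KO was Cebpa, -0.81 (95% CI -1.15 to -0.47, adjusted p = 0.0064).

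Under genotype and RvE1 these regulators gave few calls. In KO lean against WT lean livers 1 was called higher (Cebpa) and 2 lower (Onecut1 and Arnt), and 1 partner gene, Cyb5r3, was called lower. There 3.94% of all genes were called higher and 2.7% lower. None of either list was called in KO obese against WT obese livers or under RvE1. Por was at 0.20 in the lean genotype contrast, -0.13 in the obese one, -0.15 under RvE1 in WT and -0.42 in KO on the log2 scale. In the same order Nr1i3 was at 0.28, -0.06, 0.12 and 0.33, Nr1i2 at 0.05, 0.02, -0.13 and -0.42, Ahr at -0.06, 0.01, -0.09 and -0.17, and Ppara at -0.14, 0.11, 0.17 and -0.28. Ahr targets outside the family gave 1 call higher of 5 tested in WT (the quinone reductase Nqo1, 0.81 (95% CI 0.38 to 1.25, adjusted p = 0.0404)) and 2 in KO (Nqo1, 1.09 (95% CI 0.71 to 1.47, adjusted p = 0.00327), and the glucuronosyltransferase Ugt1a6a, 0.59 (95% CI 0.22 to 0.96, adjusted p = 0.0347)). Under the diet 2.26% of all genes were called higher in WT and 4.97% in KO.

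Other transcripts moved beside the diet differences. As a baseline, 2.26% of all genes tested were called higher and 1.53% lower in WT, and 4.97% and 5.42% in KO. Of 17 pericentral hepatocyte genes outside the family, 3 were called higher in WT (median 0.22) and 5 in KO (median 0.31), among them the glutamine synthetase Glul in KO, 0.86 (95% CI 0.53 to 1.18, adjusted p = 0.00425). Of 16 periportal genes, none was called in WT, and 1 was higher and 2 lower in KO. The 8 hepatocyte-defining genes gave no call in either. Kupffer cell markers were uncalled in WT and 5 of 7 were lower in KO, with summed counts of 10001 to 16360.1 in KO lean and 4868 to 10308 in KO obese livers. In KO lean against WT lean livers 5 of 7 of these markers were called higher, where 3.94% of all genes were (median log2 fold change 0.84). None of them was called in KO obese against WT obese livers (median 0.03). Of 6 adipocyte markers listed, 2 were tested, with a median log2 fold change of 1.90 and none called in WT, and a median of 1.94 with Plin4 called higher in KO. Those listed in the tables summed to 318 to 1839 in WT lean and 716 to 4663 in WT obese livers, and to 281 to 1417 in KO lean and 1094 to 5046 in KO obese livers. The clock genes gave 4 calls in each genotype. Sinusoidal endothelial markers gave 1 call lower of 8 in WT and 2 of 8 in KO, erythroid markers 1 lower of 2 in KO and none in WT, and immediate early genes 1 lower of 9 in WT and none in KO. Stellate cell, bile duct, pancreatic and adrenal markers gave no call under the diet. The part of these transcripts in the P450 differences was not tested.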

How the data were processed

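Liver RNA of 42 mice was sequenced as stranded total RNA. The authors aligned reads to mm10 with Bowtie2, counted them with featureCounts (Subread) and ran DESeq2 once for each of 6 comparisons; their versions and the annotation, strand and multi-mapping settings: not given in the sources used here. The deposited signal values are DESeq2 size-factor normalized counts, and each table was normalized over its own 14 libraries, so groups were compared only within a table. Columns of the authors' own fold changes and p-values were not used. Depth was 15992525 to 43841120 reads per library.

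The main test was limma 3.58.1 (R 4.3.3) on log2(normalized count + 1), two-sided, over every gene with a mean of at least 5, with Benjamini-Hochberg adjustment; fold changes on this scale understate those of low genes. Called meant an adjusted p below 0.1 and a fold change above 1.5, and interactions (KO difference minus WT difference) had no fold threshold. Whole reads were recovered from the values for edgeR 4.0.16 and DESeq2 1.42.0, to within 0.1 of a read. Alternatives were other thresholds, pseudocounts of 0.5 and 4, all genes kept whatever their count, scaling by TMM or to equal library totals, the identifier number as a random effect, and leaving out each mouse. The scripts were tested on simulated data. Gene positions and coding sequences came from GENCODE M21, promoters from RefSeq.

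The members and gene lists were chosen with earlier results of these data known. Named genes were 12 set members in every comparison, every member called, the 12 most abundant per length in WT lean livers and the 3 with the widest spread within a group; of each list up to 3 called genes were named. Cyp2a12, Cyp26b1, Cyp2c39, Cyp2c68, Cyp39a1, Cyp4f14, Cyp3a41a, Cyp2d34 outside the KO diet contrast, and the per-number values were picked after their values were seen.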

Additional observations from a re-analysis of the deposited data

Results flagged for a closer look

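Among 192 combinations of a named P450 gene and a group of 7 mice, 12 had 1 mouse whose gap to the nearest other mouse, on the log2 scale, as a share of the whole range of the group, was above Dixon's 95% critical value. Chance alone marks about 1 in 20 groups. The values are normalized counts. Cyp17a1 in KO obese+RvE1 replicate 6 was the lowest of its group at 707, with the next mouse at 1199 and the group median at 1322. Cyp2c29 in WT obese+RvE1 replicate 4 was the lowest of its group at 6647, with the next mouse at 10063 and the group median at 10969. Cyp2c55 in KO obese replicate 2 was the lowest of its group at 5.16, with the next mouse at 14.1 and the group median at 18.7. Cyp2d9 in KO lean replicate 4 was the highest of its group at 27530.3, with the next mouse at 22496 and the group median at 20247. Cyp2e1 in KO lean replicate 5 was the highest of its group at 180973, with the next mouse at 120306 and the group median at 108668. Cyp2e1 in KO obese replicate 6 was the lowest of its group at 121773, with the next mouse at 160055 and the group median at 168765. Cyp2e1 in WT obese+RvE1 replicate 3 was the highest of its group at 262527, with the next mouse at 202330 and the group median at 183811. Cyp2f2 in KO obese replicate 4 was the highest of its group at 19950.5, with the next mouse at 15485 and the group median at 14222. Cyp4a31 in KO obese replicate 4 was the highest of its group at 372, with the next mouse at 179 and the group median at 162. Cyp4a32 in WT lean replicate 1 was the lowest of its group at 939, with the next mouse at 1875 and the group median at 2034. Cyp4a32 in WT obese replicate 4 was the lowest of its group at 451, with the next mouse at 1055 and the group median at 1270.4. Cyp4a32 in WT obese+RvE1 replicate 3 was the highest of its group at 1939, with the next mouse at 1277 and the group median at 1123. No difference between genotypes in the response to diet or to RvE1 passed its test.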

How the results depend on the processing

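The 9 P450 genes called in WT and the 19 called in KO under the diet kept their direction under every alternative run. In WT obese against WT lean livers the count fell to 5 at an adjusted p below 0.05, to 5 at an absolute log2 fold change above 1.5 and to 5 when the identifier number was a random block. In KO obese against KO lean livers it fell to 13 at an adjusted p below 0.05, to 7 at an absolute log2 fold change above 1.5 and to 10 with the identifier block. There it was 17 with a pseudocount of 4 and 24 with no fold threshold. In KO lean against WT lean livers the count of 0 became 2 with no fold threshold, 4 with equal library totals and 2 with DESeq2, and under RvE1 in KO it became 2 with DESeq2. Leaving out 1 mouse at a time gave 6 to 10 genes for the WT diet, 13 to 22 for the KO diet, 0 to 6 for KO lean against WT lean (6 without KO lean replicate 5), 0 to 1 for the diet by genotype difference (1 without WT obese replicate 1 or KO lean replicate 5), and 0 in the other contrasts. The causes were not tested. No paired analysis was possible because the groups compared share at most 1 identifier number (23, in KO obese and KO obese+RvE1 mice). Outside the genes called by limma, edgeR and DESeq2 also called Cyp2c39 in KO under the diet. Among single genes, 4587 values stayed on their side of the threshold, 111 fell below it, 22 rose above it and 0 reversed.

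Reads that fit several near-identical copies limit the Cyp2a4 and Cyp2a5 pair and the Cyp4a12a and Cyp4a12b pair, and genes with few reads, such as Cyp26c1 and Cyp2c55, were near the lower limit of counting.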
